A study of Mus musculus with 6 samples.

Results

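The insulin and insulin-like growth factor (IGF) signalling genes followed here were Insr, Irs1, Irs2, Igf1, Igf2, Igf1r, Igfbp3, Igfbp4, Igfbp5 and Igfbp7. They were taken as every probe set whose platform entry gives one of these symbols and no other, which found 29 of 45099 probe sets for 10 genes, among 18193 genes named there. The main reading of a gene is the probe set brightest by mean log2 value, and its others are given beside it. RNA came from hearts of male mice under basal conditions, 3 of them wild-type (WT) and 3 labelled KO. The latter lack ERRα, per the design text. ERRα is the estrogen-related receptor alpha, a nuclear receptor without a known hormone whose gene is Esrra. Of the 6 mice, 5 were labelled C57BL/6J aged 2 to 3 months, and the labels of WT 1 give no strain or age. Each array, of an Affymetrix type, holds 1 heart, and no agent or other allele is named for either group. How the Esrra allele was made, the part of the gene it removes and whether whole hearts were used are not stated in the labels.

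Insulin acts through the receptor encoded by Insr, and IGF-1 and IGF-2 act mainly through the related tyrosine kinase encoded by Igf1r. Both receptors phosphorylate the docking proteins IRS1 and IRS2, which recruit phosphoinositide 3-kinase (PI3K) and so activate AKT. AKT promotes glucose uptake and growth and keeps FOXO transcription factors out of the nucleus. IGF binding proteins hold IGFs outside the cell and can lengthen or block their action. In the heart the pathway is known for control of myocyte growth, survival and substrate use.

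Values are MAS5 signals per probe set on a linear scale, as deposited. Differences are KO minus WT on the scale of log2(signal + 16), which understates the change of dim probe sets. They were tested with limma over 12946 genes and Benjamini-Hochberg adjusted p is given, with a threshold of 0.05. Median signals per array ran from 12.4 to 16, and WT 1 was the brightest array. The targeted gene checked the labels. Esrra (chr19:6910977-6922048) had WT signals of 368.1, 394.4 and 349.1 (mice 1 to 3), against 180.1, 24 and 18 in the libraries labelled KO 1 to 3. The library labelled KO 1 thus kept 48.6% of the WT mean, which goes against its label, so the differences of the 10 genes are also given without it. Markers of cardiac myocytes were bright in every heart and none of the 9 passed the test, so the labelled tissue held its defining transcripts.

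Of the 10 genes, 3 rose in the libraries labelled KO, and none fell. These were Igf1r, the receptor for IGF-1 and IGF-2, Igf2, a fetal growth factor, and Igfbp5, a binding protein for both IGFs. Their signals were 1.81, 1.69 and 1.82 times the WT mean. Over all genes tested, 2.97% were called, made up of 1.78% higher and 1.18% lower. In bulk tissue, a change in the number of cells of a type and a change in RNA per cell cannot be told apart. The median difference of the 10 genes was 0.29, against -0.028 over all genes tested. In all, 16.2% of genes tested had groups that did not overlap. For 4 of the 10 genes every library labelled KO lay above every WT heart, and for 1, Irs1, every one lay below. Over all genes 6.81% were separated upward and 9.41% downward. The genes and these tests were chosen with earlier results of these data known.

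**Figure D1:**
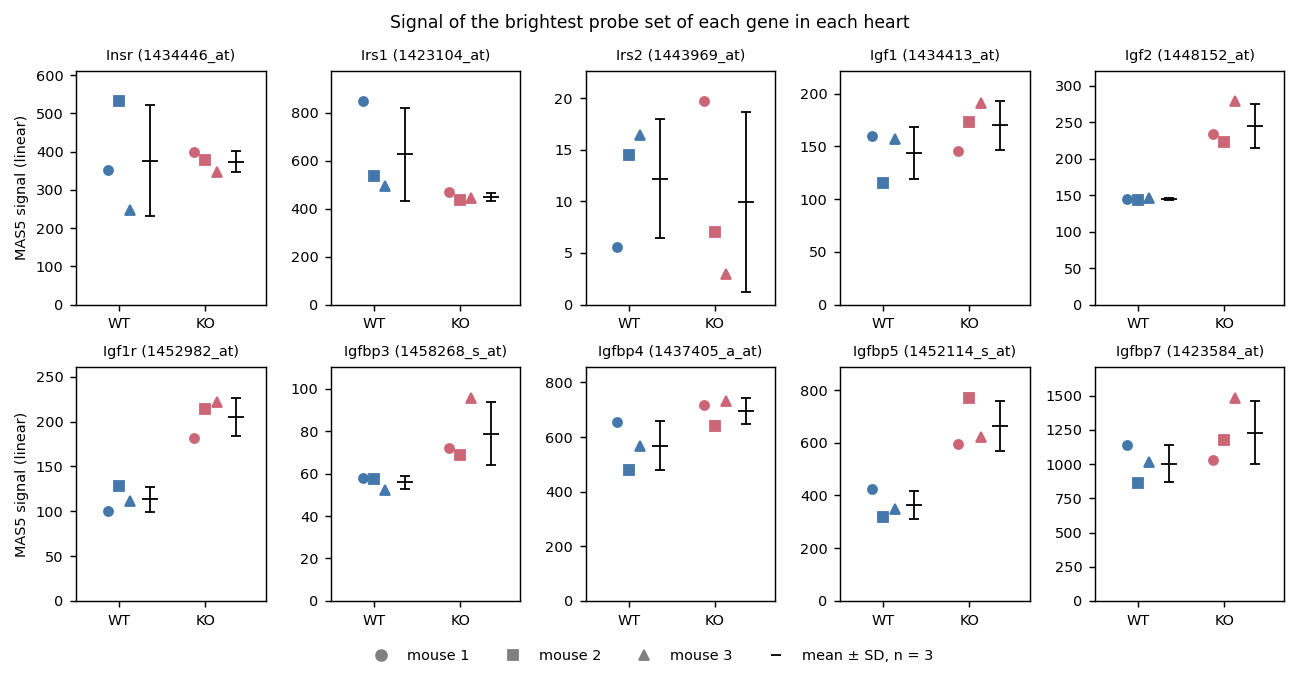
Signal of the brightest probe set of each of the 10 genes (vertical axis, linear MAS5 signal from 0) in the 3 WT hearts and the 3 libraries labelled KO, with 1 symbol per mouse number and black bars for mean ± SD. For Igf2, Igf1r, Igfbp3 and Igfbp5 all KO symbols sit above all WT symbols, while for Insr, Irs2, Igf1, Igfbp4 and Igfbp7 the groups overlap.

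The gene for the IGF receptor carried the only match to an ERR element among the 12 promoter windows of these genes, so its sequence is shown with that of Igfbp5, the called gene of smallest p, which had none. The 250 bases before the annotated start are printed 5′ to 3′ on the strand of the gene, from RefSeq on GRCm38.p6, and capitals mark the match. The Igf1r window is chr7:67952007-67952256 on the plus strand and the Igfbp5 window is chr1:72874866-72875115 on the minus strand.
Igf1r: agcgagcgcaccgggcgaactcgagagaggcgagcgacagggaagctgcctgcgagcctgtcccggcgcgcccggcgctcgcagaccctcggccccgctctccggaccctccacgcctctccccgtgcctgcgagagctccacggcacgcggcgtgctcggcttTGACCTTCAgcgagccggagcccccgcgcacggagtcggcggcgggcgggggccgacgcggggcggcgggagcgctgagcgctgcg
Igfbp5: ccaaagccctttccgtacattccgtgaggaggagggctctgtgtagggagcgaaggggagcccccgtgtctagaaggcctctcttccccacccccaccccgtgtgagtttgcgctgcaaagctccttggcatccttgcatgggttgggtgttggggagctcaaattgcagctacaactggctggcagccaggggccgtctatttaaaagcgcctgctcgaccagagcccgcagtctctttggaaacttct
The element was searched as TNAAGGTCA on both strands, in windows from 250 bases before to 50 after a start. In Igf1r it was read on the opposite strand as TGAAGGTCA, at chr7:67952171-67952179, from 86 to 78 bases before the start. It was found in 1.28% of 32851 windows in the table and in 1 of the 12 windows of these genes, which covered 9 of the 10 (4 windows for Igf2). A FOXO element, searched as GTAAACA on both strands, was in 3.65% of all windows and in 0 of the 12. A match describes letters in this window, and binding of ERRα there was not measured.

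Among the receptors, Igf1r (chr7:67952257-68233668) rose. Its brightest probe set, 1452982_at, read 100.5, 128.3 and 111.3 in WT 1 to 3, against 181.5, 213.5 and 221.6 in libraries KO 1 to 3. All 3 KO values lay above all WT values, and the library labelled KO 1 was among them. The means were 113 ± 14.0 and 206 ± 21.2 (SD, n = 3 each), with a difference of 0.78 on the log2 scale (SE 0.169, limma adjusted p = 0.0031). Without the library labelled KO 1 it was 0.86 (limma adjusted p = 0.00206), in a fit where 3.92% of all genes were called, 2.31% higher and 1.61% lower. In that fit the variances came wholly from a trend over all genes. A gene's own spread therefore did not enter the p-values given without KO 1, here and below.

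The Igf1r probe sets did not all show this. A second one, 1428967_at, which the platform table derives from the same sequence entry, gave 23.8, 16.4 and 16.5 in WT, against 36.3, 33 and 33.7 in KO 1 to 3. It was also separated, with a log2 difference of 0.53, but did not pass the test over every named probe set above the filter (limma adjusted p = 0.164), where 2.18% of all were called and 1.35% of all were called higher. From a different sequence entry, 1426565_at gave 43.1, 30.7 and 35.6 in WT, against 49.7, 29.9 and 46.7 in KO, which overlap (log2 difference 0.14). The dim 1452108_at and 1446303_at were at 0.18 and -0.16 and overlapped too. The log2 ratio of 1452982_at to 1426565_at was higher in the libraries labelled KO by 0.64 (two-sided exact permutation p = 0.2 over 6 hearts, 0.36 adjusted over 6 pairs of probe sets), and that of 1428967_at to 1426565_at by 0.40 (exact permutation p = 0.1, also 0.36 adjusted), where 0.1 is the smallest p that 3 against 3 hearts allow, so that this test could not reach 0.05. Read as the mean of its probe sets, Igf1r was at 0.29 and did not pass (limma adjusted p = 0.441). No source used here places these probe sets within the Igf1r transcripts.

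Insr, the insulin receptor (chr8:3150922-3279649), did not pass the test. Its brightest probe set, 1434446_at, gave 350.8, 532.2 and 247.3 in WT, against 398.8, 377.5 and 345.9 in KO 1 to 3. All 3 KO values lay inside the WT range, and the WT hearts spread widely (377 ± 144, against 374 ± 26.6 in KO, SD, n = 3 each). The log2 difference was 0.053 (SE 0.179, limma adjusted p = 0.952). Without the library labelled KO 1 it was 0.0072. Its 2 dim probe sets were at -0.07 and 0.02.

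Among the ligands, Igf2 (chr7:142650768-142666816) rose. Igf2 is an imprinted gene, highly expressed before birth and low in most adult mouse tissues. Probe set 1448152_at gave 145.5, 143.5 and 145.9 in WT, against 234, 222.4 and 279.1 in KO 1 to 3. The WT hearts were nearly equal and all KO values lay well above them. The means were 145 ± 1.29 and 245 ± 30.0 (SD, n = 3 each), with a difference of 0.69 on the log2 scale (SE 0.166, limma adjusted p = 0.00834). It was 0.72 without the library labelled KO 1 (limma adjusted p = 0.017) and 0.60 without KO 3, where it did not pass (limma adjusted p = 0.127), nor did it with no filter on dim probe sets (limma adjusted p = 0.0566). A dim second probe set, 1415931_at, gave 6.6, 1.1 and 1.8 in WT, against 8.5, 10.8 and 3.7 in KO and was below the filter.

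Igf1 (chr10:87858265-87937047), the growth factor made in liver and locally by many tissues, did not pass. Its brightest probe set, 1434413_at, gave 160, 115.6 and 156.9 in WT, against 145.7, 173 and 191.4 in KO 1 to 3. The groups overlapped, with KO 1 among the WT hearts. The log2 difference was 0.22 (SE 0.173, limma adjusted p = 0.686). The fit without the library labelled KO 1 read Igf1 from another probe set, 1437401_at, and gave 0.34 (limma adjusted p = 0.537). That value is therefore not the difference of 1434413_at with a heart left out. With every heart kept, the 3 probe sets other than 1434413_at were at 0.13 (1437401_at), 0.24 and 0.22. Of these only 1419519_at was separated.

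The docking protein genes had negative differences and neither passed. Irs1 (chr1:82233105-82291439) gave 849.5, 535.3 and 496.6 in WT, against 468.2, 437.6 and 444.1 in KO 1 to 3. The KO values were close together and all below WT, while WT 1, the brightest array, stood far above the other WT hearts. The log2 difference was -0.43 (SE 0.164, limma adjusted p = 0.191). It was -0.39 with quantile normalization (limma adjusted p = 0.0856) and -0.45 without the library labelled KO 1 (0.212). Across 22 alternative settings it ran from -0.57 to -0.19, the latter without WT 1 (limma adjusted p = 0.405), and it passed in none. Irs2 (chr8:10984681-11008929) was read from a single dim probe set that gave 5.6, 14.5 and 16.4 in WT, against 19.7, 7 and 3 in KO. These overlap, and the log2 difference of -0.15 (SE 0.245, limma adjusted p = 0.881; -0.41 without the library labelled KO 1) rests on signals that could not be told from background, since no detection calls were among the sources.

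Among the binding proteins, Igfbp5 (chr1:72858065-72874865) rose and had the smallest p of the 10 genes. IGFBP-5 binds IGFs and extracellular matrix. Probe set 1452114_s_at gave 422.8, 319 and 350 in WT, against 595.8, 771.4 and 621.6 in KO 1 to 3. All KO values lay above all WT values, with KO 2 highest. The means were 364 ± 53.3 and 663 ± 94.8 (SD, n = 3 each), with a difference of 0.84 on the log2 scale (SE 0.157, limma adjusted p = 0.00038). The other probe set, 1422313_a_at, gave 54.8, 25.3 and 37.6 in WT, against 58.1, 95.9 and 81.1 in KO, and passed as well over every probe set above the filter (log2 difference 0.79, limma adjusted p = 0.0145). Igfbp5 also passed without the library labelled KO 1 (0.91, limma adjusted p = 0.000191) and in each of 21 alternative settings, with differences from 0.73 to 0.95. Both of its probe sets have a suffix that marks shared or alternative transcripts, so leaving out shared-probe sets gave no value for it.

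For Igfbp3 (chr11:7206086-7215498), which encodes a main carrier of IGFs in blood, the call depended on which probe set was read. By mean log2 value the brightest was 1458268_s_at, with 57.8, 57.3 and 52.4 in WT, against 72, 68.6 and 95.8 in KO 1 to 3. By mean signal, 71.0 against 67.3, it was 1423062_at, with 36.7, 36.7 and 63.2 in WT, against 84.1, 75.7 and 129.8 in KO. In both, every library labelled KO lay above every WT heart, and KO 3 was highest. The first had a difference of 0.39 on the log2 scale (SE 0.174, limma adjusted p = 0.313) and did not pass. With the gene read from the second it was 0.87 (SE 0.189, limma adjusted p = 0.00314), an alternative chosen after seeing the data, under which 4 of the 10 genes rose. Igfbp3 also passed under 4 of the other settings. These were the mean of the probe sets (0.63, limma adjusted p = 0.0354) and settings that read 1423062_at. The latter were leaving out shared-probe sets (0.87, limma adjusted p = 0.00444), a pseudocount of 64 (0.55, 0.00327) and the fit without WT 2 (0.77, 0.0121). The fit without WT 1 also read 1423062_at and did not pass (0.77, limma adjusted p = 0.15). Without the library labelled KO 1 the first probe set was at 0.44 and did not pass (limma adjusted p = 0.314). The suffix of 1458268_s_at marks probes that can match more than 1 transcript.

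Igfbp4 (chr11:99040005-99052655), an inhibitor of IGF action that the protease PAPP-A cleaves, had 6 probe sets, all with positive differences from 0.29 to 0.38. The brightest, 1437405_a_at, gave 656.5, 478.7 and 568.9 in WT, against 717.1, 640.6 and 730.5 in KO 1 to 3, so that KO 2 lay below WT 1. It was at 0.29 (SE 0.151, limma adjusted p = 0.425), and at 0.27 without the library labelled KO 1 (0.615). Of the 6, 4 were separated upward. All 6 have a suffix that marks shared or alternative transcripts, so they may share sequence and are not independent. With quantile normalization Igfbp4 was separated and stood near the threshold (0.33, limma adjusted p = 0.0582), and with cyclic loess it passed (0.34, limma adjusted p = 0.0473).

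Igfbp7 (chr5:77349240-77408045), a matrix protein of vessels that binds IGFs weakly, gave 1137.5, 862.2 and 1012.6 in WT, against 1028.3, 1177.9 and 1486.4 in KO 1 to 3. The groups overlapped, with KO 3 highest. The log2 difference was 0.28 (SE 0.145, limma adjusted p = 0.425), or 0.40 without the library labelled KO 1 (0.219), and its dimmer probe sets were at 0.16 and 0.02.

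**Figure D2:**
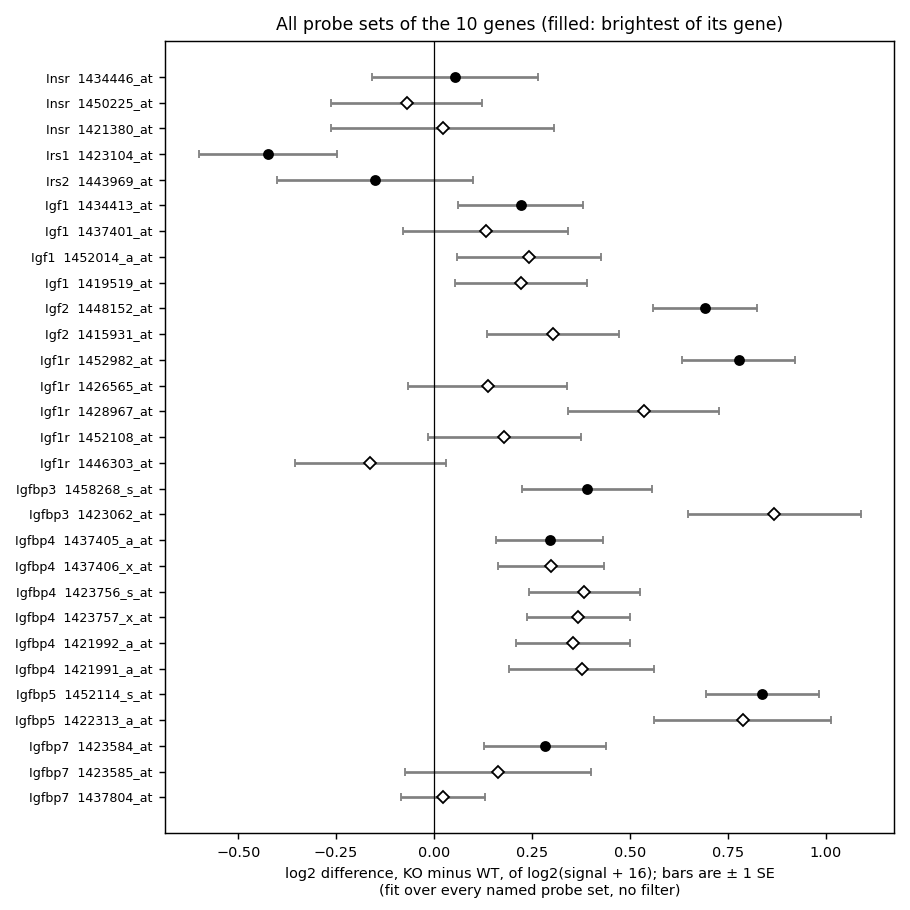
Log2 difference, KO minus WT, of log2(signal + 16) for all 29 probe sets of the 10 genes, each with ± 1 SE from the limma fit over every named probe set without a filter. Filled circles mark the brightest probe set of a gene and open diamonds the others. The 6 Igfbp4 and both Igfbp5 probe sets lie close to each other, whereas the Igf1r probe sets run from -0.16 to 0.78.

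Over all 29 probe sets, 25 had positive differences. The groups did not overlap for 12 of the 29 upward and for 1 downward, against 5.7% and 7.37% of every named probe set without a filter. Probe sets of one gene read the same RNA and are not replicates. Across hearts, the library labelled KO 3 had the highest signal of the 6 for 6 of the 10 genes, and WT 2 the lowest for 5. An exact permutation test of a single gene cannot go below 0.1 with 3 against 3 hearts. Igf1r, Igf2, Igfbp5, Igfbp3 and Irs1 reached that value. Groups that do not overlap, as in 16.2% of all genes tested, always give it, so it adds nothing to the separation reported above.

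**Figure D3:**
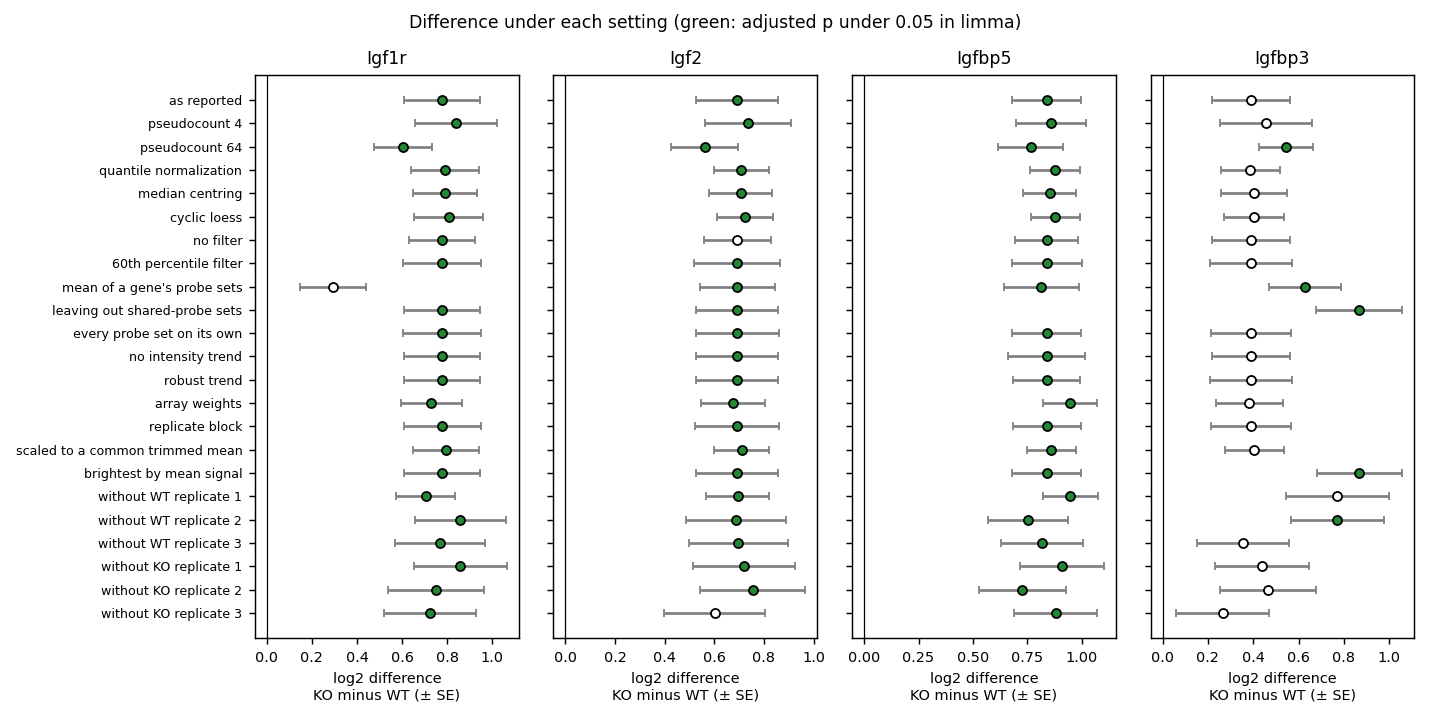
Log2 difference, KO minus WT, with ± 1 SE for Igf1r, Igf2, Igfbp5 and Igfbp3 (panels) under each processing setting and with each heart left out (rows), where green marks a limma adjusted p under 0.05. All differences lie above 0. Igf1r misses that threshold only as the mean of its probe sets (0.29), Igf2 with no filter and without KO 3 (0.60), and Igfbp3 runs from 0.27 to 0.87 across the settings. The settings do not all read the same Igfbp3 probe set.

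By correlation over the 6 hearts, the genes most like Igfbp5 were Tctn2 (Pearson r 0.995), Apoc1 (0.994), Usp42 (0.988), Hspa1b (0.987) and Msln (0.983). The 6 hearts share the difference between the groups, so this is a description of order among them. Of the 5, Hspa1b, an inducible heat shock protein, passed the test on its own, with 36.1, 20 and 28.3 in WT, against 117.9, 152.1 and 112 in KO 1 to 3. Its log2 difference was 1.71 (limma adjusted p = 1.72e-09). The other 4 did not pass. Among them Tctn2, Apoc1 and Msln were dim, at 27.6 or less in every heart, and no detection calls were among the sources.

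The rest of the pathway was read from 4 lists of 84 genes in all, of which 73 were tested. Of these, 2 rose and 4 fell, against 1.78% and 1.18% of all genes, and the median difference was -0.036. Without WT 1, where 0.944% of all genes were called (0.797% higher and 0.147% lower), the counts were 0 and 2, and without the library labelled KO 1 they were 1 and 5. In the lists of upstream and core signalling genes 1 of 53 passed, Tbc1d1, and 0 fell.

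Of 8 tested genes among other receptors and ligand partners, 0 passed the limma test, and 2 had an unadjusted p under 0.05. These were Igfbp6, a binding protein that prefers IGF-2, and Htra1, a protease that cleaves IGF binding proteins. Igfbp6 gave 107.5, 76.4 and 104.5 in WT, against 151, 136.7 and 144.6 in KO 1 to 3. The groups were separated, with a difference of 0.52 on the log2 scale (SE 0.172, limma adjusted p = 0.0916), and it passed with quantile normalization (0.54, limma adjusted p = 0.0375). Htra1 gave 704.2, 515.2 and 566.2 in WT, against 480.4, 469.8 and 469.5 in KO, separated the other way (-0.31, limma adjusted p = 0.399). Stc2, an inhibitor of the protease PAPP-A, was at -0.22 and Igfals, the acid-labile subunit of circulating IGF complexes, at 0.21.

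Of 14 adaptors and negative regulators 0 passed, and 0 had an unadjusted p under 0.05. Smallest in p were Grb14, an adaptor that inhibits the insulin receptor (-0.23, SE 0.143), Socs3, a cytokine-induced inhibitor of signalling (0.28, SE 0.199), Gab1, a docking protein (-0.11, SE 0.160), and Trib3, a pseudokinase (0.13, SE 0.194).

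Of 31 PI3K, AKT and mTOR genes 1 rose and 0 fell, and 4 had an unadjusted p under 0.05. Tbc1d1, a Rab GTPase-activating protein that AKT and AMPK phosphorylate and that restrains glucose transporter traffic, gave 32, 31.6 and 27.4 in WT, against 61.8, 51.7 and 58.3 in KO 1 to 3. The groups were far apart on this shared-probe set (log2 difference 0.66, SE 0.178, limma adjusted p = 0.0235). The call was lost in 9 of 22 alternative settings. Among these were the fits without the library labelled KO 1 (0.62, limma adjusted p = 0.0806), without KO 3 (0.65, 0.0972) and without each WT heart (0.61 to 0.69, 0.0515 to 0.1), and the reading from its next probe set (0.35, 0.495). Pik3r3, a regulatory subunit of PI3K, gave 102, 65.4 and 69.1 in WT, against 54.6, 42.2 and 47.9 in KO. It was separated downward (-0.55, SE 0.179, limma adjusted p = 0.0912) and passed with quantile normalization (-0.54, limma adjusted p = 0.0427). Gsk3b, a kinase that AKT inhibits, was at -0.36, and Pdpk1, the kinase that activates AKT, at 0.35, and neither passed.

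**Figure D4:**
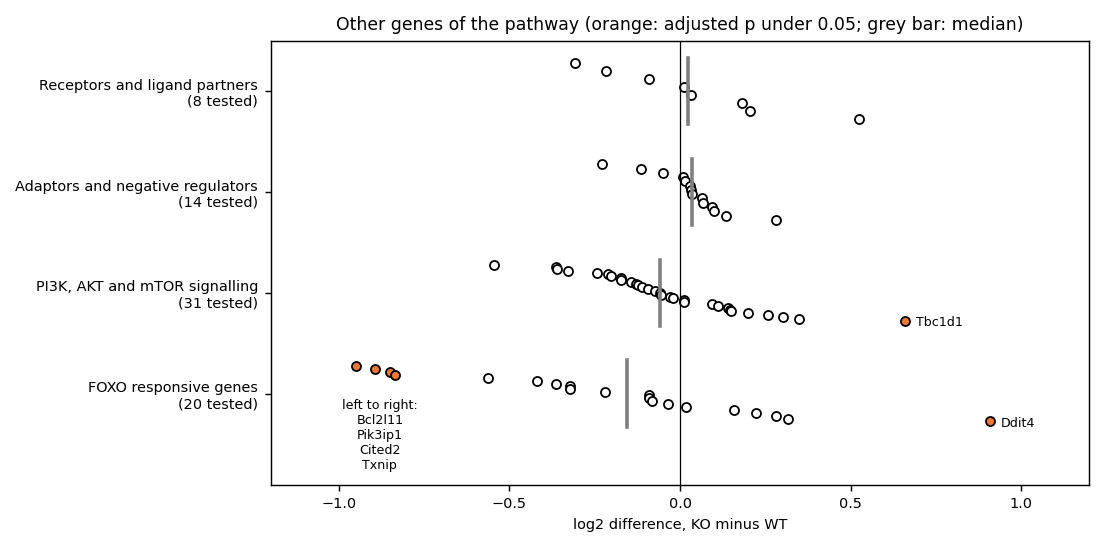
Log2 difference, KO minus WT, of each tested gene in the 4 lists of other pathway genes, where orange marks a limma adjusted p under 0.05 and the grey bar is the list's median. The upstream lists sit around 0 with Tbc1d1 alone called, while among FOXO responsive genes 4 are called at -0.84 or below and Ddit4 at 0.91.

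Of 20 FOXO responsive genes 4 fell and 1 rose, against 1.18% and 1.78% of all genes tested. The other 15 did not pass, and the median was -0.16. Txnip, which binds thioredoxin and restrains glucose uptake, gave 2268.5, 2589 and 2067.6 in WT, against 1400.3, 1341.9 and 1116.2 in KO 1 to 3 (a difference of -0.84, SE 0.130, limma adjusted p = 1.42e-05). Bcl2l11, which encodes the pro-apoptotic protein BIM, gave 282.6, 317.5 and 247.1 in WT, against 149.8, 150.2 and 116.1 in KO (-0.95, SE 0.169, limma adjusted p = 0.000159). Both were far below WT in every library labelled KO.

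Cited2, a transcriptional coregulator that limits the hypoxia response, gave 316.5, 315.9 and 265.3 in WT, against 226.6, 139.9 and 124.3 in KO (-0.85, limma adjusted p = 0.00192). Pik3ip1, an inhibitor of PI3K, gave 208.9, 276.6 and 215.3 in WT, against 174.2, 124.1 and 73 in KO (-0.89, limma adjusted p = 0.00253). In both genes the library labelled KO 1 lay nearest to WT. Cited2 did not pass with no filter (limma adjusted p = 0.0928) or without WT 1 (-0.81, limma adjusted p = 0.103). Pik3ip1 passed in 15 of 22 alternative settings. It did not pass with quantile normalization (-0.88, limma adjusted p = 0.0949), cyclic loess (-0.86, 0.0935) or scaling to a common trimmed mean (-0.88, 0.0815). Nor did it without WT 1 (-0.96, limma adjusted p = 0.118) or without KO 3 (-0.60, 0.125).

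Ddit4, a stress-induced inhibitor of mTORC1, rose although its groups overlapped. It gave 138.8, 98.2 and 68.9 in WT, against 215.7, 135.2 and 268.1 in KO (0.91, limma adjusted p = 0.00272), and it did not pass without WT 1 (1.13, 0.0608) or without WT 3 (0.69, 0.0503). Txnip passed in all 22 alternative settings and Bcl2l11 in 21, the exception being the mean of its probe sets (-0.50, limma adjusted p = 0.083), of which 2 of the 5 overlapped. Without the library labelled KO 1 the limma differences were -0.90 for Txnip, -1.003 for Bcl2l11, -1.09 for Cited2, -1.15 for Pik3ip1 and 0.86 for Ddit4, and all 5 passed. With no filter, Pik3ip1 and Ddit4 did not (limma adjusted p = 0.147 and 0.169), nor did they with no intensity trend (0.0526 and 0.0607). The groups did not overlap downward for 8 of the 20 genes and upward for 0, against 9.41% and 6.81% of all genes. With quantile normalization these were 7 and 2, against 12.5% and 11.3% of all genes. Several of these genes answer to other regulators too, among them glucose, hypoxia and glucocorticoids.

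Markers of other cell types moved with the groups. Of 9 fibroblast markers 1 rose, Col3a1 (log2 difference 0.49, limma adjusted p = 0.0267), and 8 were separated upward. Among all genes tested 1.78% were called higher and 6.81% were separated upward. The count of fibroblast markers that rose was 4 with quantile normalization, 2 without the library labelled KO 1 and 0 without KO 3. In these fits 3.45%, 3.92% and 1.51% of all genes were called in either direction. The summed fibroblast signal was 5973.1 to 7285 in WT and 7943.4 to 9666.8 in the libraries labelled KO, highest in KO 3. Of 8 smooth muscle and pericyte markers 2 rose, Acta2 and Cnn1, and 0 were separated in either direction. The summed signal of the list was 5058.9 to 6069.6 in WT and 6395.1 to 8317.8 in KO. It was mostly Acta2 and Rgs5, and Rgs5 did not pass (limma adjusted p = 0.968). The count of these markers that rose was 3 without KO 3, 1 without the library labelled KO 1 and 0 without WT 1 or with quantile normalization. All 7 atrial markers rose, or 2 without WT 1 (2977 to 9701.1 in WT and 13901.3 to 16594.1 in KO), and 4 of 5 tested adipocyte markers did, or 1 without WT 1 and 2 with quantile normalization (3397.7 to 4104.9 and 3784.4 to 5581.9).

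Of 8 endothelial markers 0 passed (1567.8 to 2055.6 in WT and 1824.7 to 2158.1 in KO), of 8 macrophage and leukocyte markers 0 (1900.1 to 2891.4 and 2102.9 to 3021.5), and of 9 cardiomyocyte markers 0 (64897.4 to 72098 and 61181.7 to 65317.4), with 1 in each of the 3 lists at an unadjusted p under 0.05 in limma. Of 7 genes listed as skeletal muscle markers, 3 were tested in these hearts, of which Tnni2 rose and Acta1 fell. Acta1 was bright in every heart, at 745.4 or more. Tnni2 was dim and its groups overlapped (37, 12.3 and 2.6 in WT, against 22.2, 42.3 and 58.6 in KO 1 to 3). Tnni2 did not pass with quantile normalization (limma adjusted p = 0.168) or without KO 3, and neither passed without WT 1. Without the library labelled KO 1, 1 of the 9 cardiomyocyte markers fell, and 1 macrophage and leukocyte, 7 atrial and 4 adipocyte markers rose. With quantile normalization 1 endothelial marker, Eng, rose (log2 difference 0.35, limma adjusted p = 0.0375). The liver markers Alb, Apoa1 and Fgb were dim in every heart, with Alb at 14.9 or less.

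The summed adipocyte signal was mostly Fabp4, a fatty acid binding protein that endothelium also makes, and Fabp4 did not pass (4025.1, 3322.5 and 3835.7 in WT, against 3467.9, 3255.4 and 4040.2 in KO 1 to 3). Adipoq, the adipocyte hormone adiponectin, rose from 22.3, 15.7 and 17 in WT to 54, 390.7 and 323 in KO 1 to 3. Car3, a carbonic anhydrase abundant in fat, rose from 29.7, 42.8 and 67.8 to 235, 1331.5 and 1147.7. For both, the library labelled KO 1 lay above every WT heart and well below KO 2 and KO 3. Its Igf1r, Igf2 and Igfbp5 signals stood at 160, 161 and 164% of their WT means. The same signals were at 188, 153 and 212% in KO 2 and at 195, 193 and 171% in KO 3. In WT 3 the summed atrial signal was 177% of the WT mean. Its Igf1r and Igfbp5 signals lay between those of the other WT hearts, and its Igf2 signal, 145.9, was the highest of the 3 by a small margin. The summed fibroblast signal was 121, 125 and 147% of the WT mean in KO 1 to 3. The part of the adipocyte, atrial, fibroblast and smooth muscle signals in the rise of Igf1r, Igf2 and Igfbp5 was not tested.

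**Figure D5:**
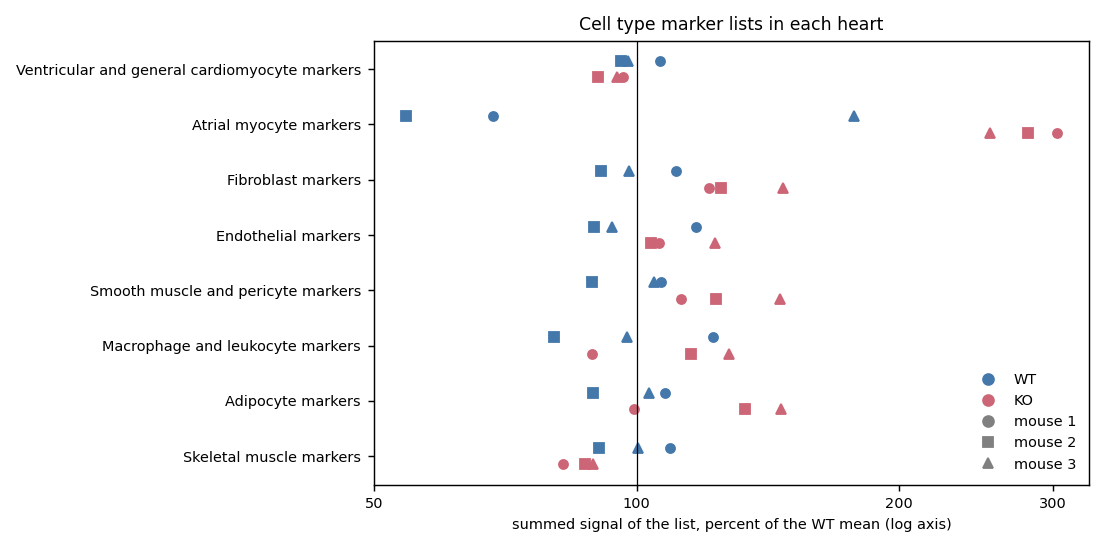
Summed signal of each list of cell type markers in each heart, as a percent of the mean of the 3 WT hearts on a log axis, with blue for WT, red for the libraries labelled KO and 1 symbol per mouse number. Atrial, fibroblast and smooth muscle sums lie above all WT hearts in every library labelled KO, although 0 single smooth muscle markers were separated. The adipocyte sum of KO 1 lies at 99.3%, a value set mostly by Fabp4 that does not show the rise of Adipoq and Car3 in that library.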

How the data were processed

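The authors deposited 1 signal intensity per probe set and heart without a log, computed with MAS5 (the submitters' processing notes name it). MAS5 merges the probes of a probe set. No source used here gives its scaling target or detection calls. The values run from 0 to 10889.5. They were used without further normalization, with other scalings as alternatives.

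Of 45099 probe sets, 62 were controls, and 34945 others had 1 symbol in the platform table. Log2(signal + 16) was taken, probe sets whose mean reached the 40th percentile (log2 4.59) were kept, and each gene was read from the probe set of highest mean log2 value, which left 12946 genes. In R 4.3.3, limma 3.58.1 tested KO against WT (lmFit, then eBayes allowing for an intensity trend), and two-sided p-values were adjusted by Benjamini-Hochberg. The fit was also run on simulated data with independent noise and planted changes. These lack the differences in brightness between arrays seen here, so they do not test how the fit handles them. Variances were shrunk toward a common trend (45.6 prior degrees of freedom), so a p-value depends little on a gene's own spread. With the 60th percentile filter, or with WT 2 or any library labelled KO left out, these degrees were infinite. A gene's own spread then did not enter its p-value at all. Without WT 1 they were 7.14, so passing the threshold is not alike across these fits. The number of arrays limits the precision.

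All 10 genes were named, with Esrra, the genes past the test and those of smallest p up to 4 in each pathway list, marker genes set beside a result, and the 5 genes best correlated with the gene of smallest p. Group labels follow the sample titles, although the array header of WT 1 carries another mouse number. Members and lists were chosen with earlier results of these data known. Promoters were taken from RefSeq on GRCm38.p6. Protein sequences were not used here.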

Additional observations from a re-analysis of the deposited data

How the results depend on the processing

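Of the 10 genes, 2 to 4 rose and none fell in all 22 alternative settings. The count over all genes moved from 384 to 66 with no filter on dim probe sets, 171 with no intensity trend and 610 with array weights, and between 122 (without WT 1) and 508 (without KO 1) with a heart left out (196 without KO 3). The 6 other pathway genes called became 2 with no filter and 3 with no intensity trend, and 2 to 8 with a heart left out. Esrra, at -2.58, did not pass with a robust trend (limma adjusted p = 0.307), and ran from -3.39 to -2.12 with a heart left out, not passing without WT 1 (0.07). Igf2 kept its difference of 0.69 but did not pass with no filter (limma adjusted p = 0.0566). With a heart left out, Insr ran from -0.20 (without WT 3) to 0.33 and Irs2 from -0.41 to 0.047 (without KO 3), and neither passed in any setting. The cause of these shifts was not tested. Igfbp4 and Igfbp5 have no unshared probe set, and Irs2 fell below the 60th percentile filter, so those settings gave no value for them. Mouse numbers do not pair the hearts per the labels, and same-numbered deviations correlated at 0.027, -0.016 and 0.029. With the replicate block 3 of the 10 genes, 7 other pathway genes and 412 genes in all passed, and the Igf1r difference of 0.78 had a limma adjusted p of 0.00382. With dim signals and no detection calls, Irs2 cannot be judged.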
